A study of Carassius gibelio with 4 samples.

Results

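Gene expression in the liver on a rapeseed meal diet was set against that on a fishmeal diet in strain A of gibel carp (Carassius gibelio), with 1 RNA library per diet. Both groups are liver sampled 8 hours after the last feeding, and the labels distinguish them by diet alone. The series also holds 1 library per diet for strain F, whose values are used here only beside those of strain A. How many fish went into a library, their age and sex, and how long they were fed are not stated in the labels. A gene ID was included if the mean of its levels in the 2 strain A libraries was 1 or more, which 38011 of 56011 IDs met (67.9%). No difference below has a replicate check, and none was tested.

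Gibel carp is a polyploid cyprinid, so that its genome carries several closely related copies of many genes. Many of its lineages reproduce by gynogenesis. Fishmeal is the traditional protein source of farmed fish feed, and rapeseed meal is a plant protein that brings fibre, phytic acid and glucosinolates with it. The liver takes up nutrients after a meal, builds and breaks down lipids, glycogen and amino acids, detoxifies plant compounds and secretes most plasma proteins, whose transcripts are commonly the most abundant ones of the organ.

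The IDs have the form of a component number, written c and digits, followed by g and a second number. Gene names stand beside them nowhere in the files, and 0 of them were found in the RefSeq gene table of the species. No gene, pathway or cell type can therefore be named, and whether the tissue carries liver markers could not be checked. IDs that share a component number are treated as members of 1 assembly component, as the naming implies. In whole tissue, fewer cells of a type and less RNA per cell cannot be told apart.

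The values behave as FPKM, that is, fragments per kilobase of transcript scaled to the mapped fragments of a library, multiplied by 1 factor per library. Low values of each library were whole multiples of a fixed step, which gave a factor of 0.993 for the fishmeal library of strain A and 1.34 for its rapeseed library. Their ratio of 1.35 adds 0.43 to each log2 fold of rapeseed over fishmeal before the pseudocount. The deposited values summed to 1.22e+06 on fishmeal and 1.65e+06 on rapeseed, and to 1.23e+06 and 1.24e+06 with the factors divided out. The number of reads is unknown. The most common ratio of low values was taken to mark IDs with the same small number of reads in both libraries. Under that assumption, which was not tested, the depth of the rapeseed library was 0.990 times that of the fishmeal library. The estimate rests on the 2128 of 16735 IDs near that ratio. Each result is given on the deposited scale and, where it matters, with the factors divided out. The median log2 fold of all included IDs was -0.03 on the first scale and -0.35 on the second.

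Rapeseed and fishmeal livers of strain A differed by at least 2-fold in 6803 IDs. The balance of directions differed between classes of mean level. That mean is taken from the same 2 values as the fold, so level and direction are not independent measures. At least 2-fold means a difference of 1 or more in log2(value + 1). Of all 38011 IDs, 3323 stood higher on rapeseed (8.74%) and 3480 lower (9.16%), so that 48.8% of the 2-fold IDs were higher. Dividing the factors out left 2191 higher (5.76%) and made 5389 lower (14.2%), with 28.9% of the 2-fold IDs higher. Dividing these 2 factors out lowers every fold, so by arithmetic all 2191 were among the 3323, and all 3480 among the 5389. The near balance on the deposited scale also turned with the treatment of low values. Among IDs above 0 in both libraries 2175 were higher and 1872 lower, and with a pseudocount of 5 the counts were 649 and 442.

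On the deposited scale the share of higher IDs among the 2-fold ones grew with the level class. At a mean level of 1000 FPKM or more, 34 of 200 IDs (17%) stood at least 2-fold higher on rapeseed and 0 stood lower. The class rests on the same 2 values as the fold, so 1 high value can bring an ID into it. This held for c32618_g1, at 55.1 FPKM on fishmeal and 3015 FPKM on rapeseed. In turn, c37151_g1 stood at 1214 FPKM on fishmeal, but its mean of 752 FPKM left it outside. How far this sets the counts was not tested. At level 100 to 1000 the counts were 97 higher and 15 lower of 807. In the class from 10 to 100 they were 312 and 210 of 5513, and from 1 to 10 they were 2880 and 3255 of 31491. The median log2 fold went from -0.06 in the lowest class to 0.01, 0.29 and 0.49 in the classes above it. The middle 50% of IDs spanned 0.78 on the log2 scale at level 1 to 10, and 0.58, 0.54 and 0.36 in the higher classes, so folds of weakly expressed IDs scattered more.

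**Figure D1:**
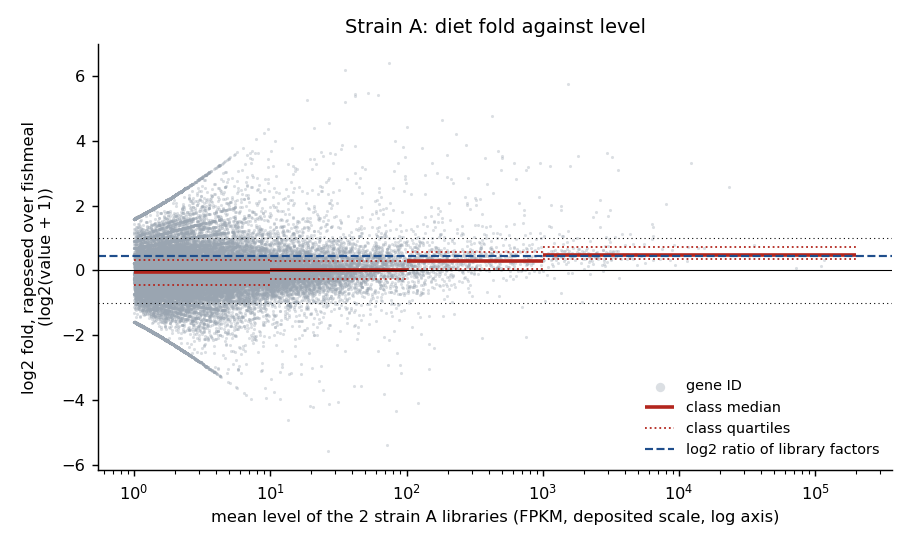
Log2 fold of rapeseed over fishmeal (y axis, from log2(value + 1)) against the mean level of both strain A libraries (x axis, FPKM, log scale), 1 point per ID. Red lines give the median and quartiles of each level class, and the dashed line is the log2 ratio of the library factors, 0.43. The class medians go from -0.06 at level 1 to 10 to 0.49 at level 1000 or more, where the median lies next to the dashed line.

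Dividing by 1 factor per library lowers every log2 fold by the same amount before the pseudocount, and by less for weak IDs once 1 is added. With the factors divided out, the medians of the 4 classes were -0.35, -0.40, -0.14 and 0.06 in order of level, so that abundant IDs centred near 0 and the others below it. The classes here and below stay those of the deposited mean, in which the rapeseed value carries the larger factor. An ID high on rapeseed thus enters a high class more easily than an ID high on fishmeal. What this does to the counts was not tested. IDs of level 1000 or more numbered 18 higher and 3 lower, and those of level 100 to 1000 numbered 55 and 42. At level 10 to 100 the balance turned to 174 higher and 568 lower, and at level 1 to 10 it widened to 1944 and 4776. The distance between the lowest and the highest class was 0.55 on the deposited scale and 0.41 with the factors divided out, and these values can differ only through the pseudocount. Which of the scales reflects RNA per liver cell cannot be told from these values.

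**Figure D2:**
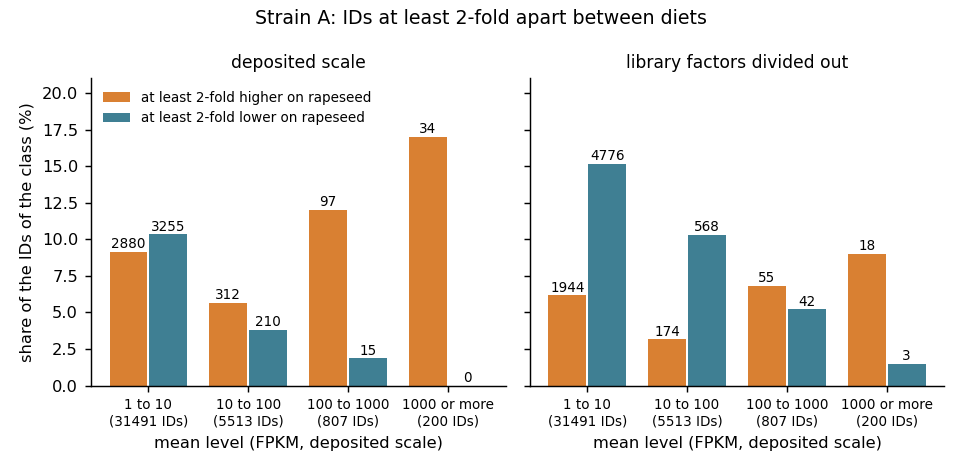
Share of the IDs of each level class (y axis, %) that were at least 2-fold higher (orange) or lower (blue) on rapeseed in strain A, with the number of IDs above each bar, on the deposited scale (left) and with the library factors divided out (right). At level 1000 or more 34 IDs were higher and 0 lower on the left, and 18 and 3 on the right. Lower IDs outnumber higher ones at level 10 to 100 only on the right. On both sides the classes are those of the deposited scale.

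Large folds of abundant IDs, by the same mean of both diets, were mostly towards a higher level on rapeseed. Among the 1007 IDs of level 100 or more, 131 (13.0%) stood at least 2-fold higher and 15 (1.49%) lower. On the same IDs 50 stood 4-fold or more higher and 6 lower, 26 stood 8-fold or more higher and 2 lower, and 5 stood 16-fold or more higher and 1 lower. With the factors divided out, the 2-fold counts were 73 higher (7.25%) and 45 lower (4.47%). Of the 131 IDs, 73 stayed past 2-fold on that scale. The 15 lower ones could not leave their set, since every fold is lowered there.

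Shares within a library do not depend on its factor, and they show how much of the measured transcriptome the 2-fold IDs made up. The 3323 higher IDs held 5.81% of the summed level on fishmeal and 16.6% on rapeseed. The 3480 lower IDs held 2.31% and 0.397%. Most of the gain came from few IDs: the 34 abundant higher ones went from 4.17% to 11.9%, and the 3 most abundant of them from 0.986% to 4.54%. IDs of level 1000 or more that stayed within 2-fold, 166 in number, held 59.5% and 57.0%. The share of the 31491 IDs of level 1 to 10 was 7.82% on fishmeal and 5.55% on rapeseed, and that of level 10 to 100 was 11.9% and 9.26%. These sets were formed from the folds themselves or from levels, so the shares only describe them.

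The most abundant ID of the higher group was c21606_g1. It stood at 6674 FPKM on fishmeal and 39896 FPKM on rapeseed, a ratio of 5.98, or 4.44 with the factors divided out. It ranked 15th of all IDs on fishmeal and 5th on rapeseed, and its share of the library went from 0.547% to 2.41%. In strain F the same ID stood at 1161 FPKM on fishmeal and 1946 FPKM on rapeseed, a ratio of 1.68. Strain A thus held more of it than strain F on each diet, with a log2 diet fold of 2.58 against 0.74 as deposited and of 2.15 against 0.14 with the factors divided out. The difference between the strains was not tested.

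The largest fold among IDs of level 100 or more that were above 0 on both diets belonged to c32618_g1. Its level was 55.1 FPKM on fishmeal and 3015 FPKM on rapeseed, 54.8 times as high, and 40.7 times with the factors divided out. It moved from rank 1536 to rank 83. In strain F it stood at 51.9 FPKM on fishmeal and 201 FPKM on rapeseed, a ratio of 3.87, or 2.55 with the factors divided out. The strains lay closer together on fishmeal than on rapeseed.

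Below c32618_g1, the other higher IDs of level 1000 or more are given in ranges cut at 8-fold and 4-fold, which serve description only, since the ratios ran on across 4-fold. In 7 IDs the rapeseed level was 8.57 to 12.4 times the fishmeal level. Fishmeal levels of these 7 ran from 218 to 2222 FPKM and rapeseed levels from 2023 to 22253 FPKM. Another 4 IDs, with c21606_g1 among them, had ratios of 4.02 to 5.98, and 22 IDs had ratios of 2.01 to 3.96. The 7 and the 4 stayed past 2-fold with the factors divided out, as did 6 of the 22. Of the 7, 5 IDs from 4 components also reached 8-fold in strain F, with ratios of 10.3 to 31.8 there, or 6.80 to 20.9 with the factors divided out, where 4 of the 5 reached 8-fold. They stood at 18.8 to 294 FPKM on fishmeal and 402 to 4543 FPKM on rapeseed in that strain. The other 2 had ratios of 0.950 and 2.72 in strain F, or 0.626 and 1.79 with the factors divided out. How many of all 200 IDs of level 1000 or more reached 8-fold in strain F was not counted. The 5 of 7 therefore have no share of all IDs beside them at that threshold. At least 2-fold higher in strain F were 6 of the 7, beside 12.5% of the 200. With the factors divided out the share of the 200 was 4.50%. The strain F ratios rest on its sparse fishmeal library, with 36996 IDs listed at 0, and were not tested.

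With the factors divided out, 3 IDs of level 1000 or more were at least 2-fold lower on rapeseed. On the deposited scale the lower IDs were less abundant than the higher ones, and none of them reached a mean level of 1000. The highest-level ID among them was c37151_g1, at 1214 FPKM on fishmeal and 291 FPKM on rapeseed, 4.17 times lower on rapeseed and 5.62 times lower with the factors divided out. It went from rank 144 to rank 508. Strain F showed 589 FPKM on fishmeal and 241 FPKM on rapeseed, the same direction with a log2 fold of -1.28 against -2.06 in strain A, or -1.89 against -2.48 with the factors divided out.

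The lowest fold at level 100 or more was that of c26918_g1, at 230.0 FPKM on fishmeal and 12.6 FPKM on rapeseed, 18.2 times lower on rapeseed (log2 fold -4.08). Its rank went from 492 to 5324. In strain F it stood at 56.5 FPKM on fishmeal and 54.9 FPKM on rapeseed, which lie between the strain A values. With the factors divided out it was 1.56 times lower on rapeseed in strain F and 24.5 times lower in strain A. The 15 lower IDs of this level came from 14 components and had log2 folds of -4.08 to -1.01, with a median of -1.76. Their fishmeal levels ran from 140.0 to 1214 FPKM and their rapeseed levels from 12.6 to 444 FPKM.

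**Figure D3:**
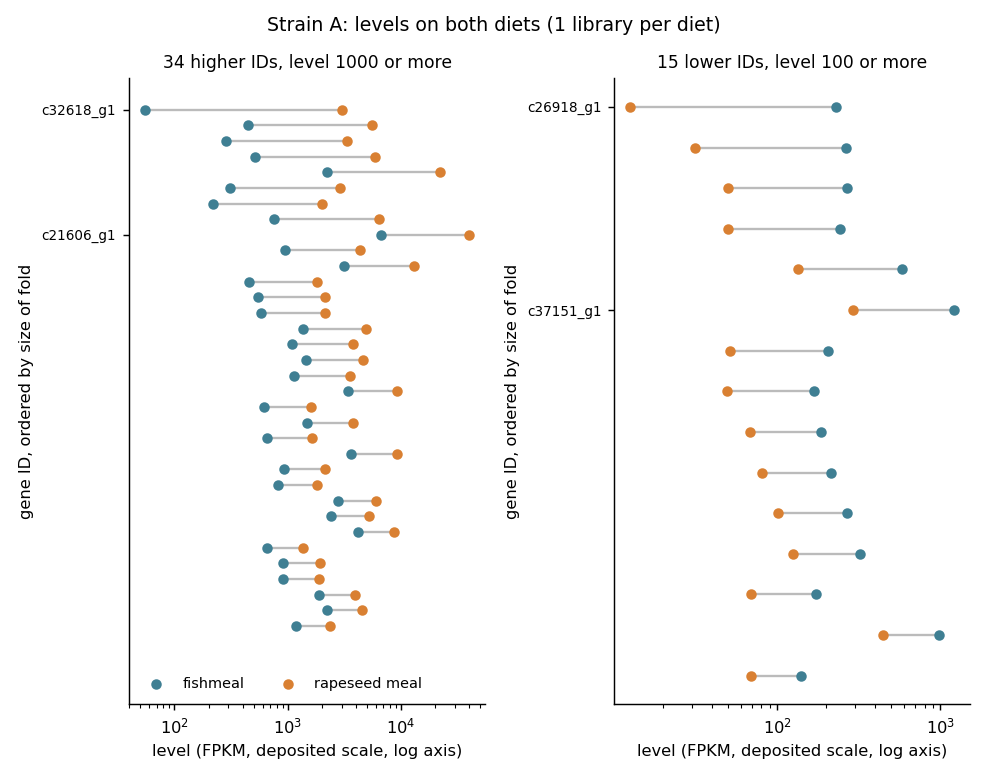
Levels (x axis, FPKM, log scale) in the 2 strain A libraries of the 34 IDs of level 1000 or more that were at least 2-fold higher on rapeseed (left) and the 15 IDs of level 100 or more that were at least 2-fold lower (right). Each row is 1 ID, ordered by size of fold, with blue for fishmeal and orange for rapeseed. The widest gap on the left is that of c32618_g1, from 55.1 to 3015 FPKM, and on the right that of c26918_g1, from 230.0 to 12.6 FPKM.

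Despite these differences the ranking of abundant IDs was largely shared. Of the 10 most abundant IDs of each library 8 were shared, as were 86 of the top 100 and 870 of the top 1000. Across the 1007 IDs of level 100 or more the log2 levels of the 2 libraries correlated with Pearson r of 0.89, and across all 38011 with r of 0.86. These are correlations across IDs, which share the library and its depth and are no replicates.

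IDs listed at 0 on one diet made up much of the 2-fold lists at low level. Any included ID that is listed at 0 in 1 library must be at least 2-fold different, since its other value is then 2 FPKM or more. On fishmeal 1148 included IDs were listed at 0, which is 34.5% of the higher IDs. Their rapeseed level had a median of 2.74 FPKM, with a 95th percentile of 6.47 and a highest value of 70.9. On rapeseed 1608 were listed at 0, which is 46.2% of the lower IDs, with a median fishmeal level of 2.97 FPKM, a 95th percentile of 6.05 and a highest value of 14.6. Of the 1148 IDs of the first set 714 were above 0 in strain F on rapeseed, and of the 1608 of the second 863. Both shares were below that of all IDs, included or not, of which 47839 of 56011 were above 0 in that library. All but 2 of these 2756 IDs had a mean level under 10, and the number of reads behind a value of this size is not known.

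The choice of 1 as the lowest mean level affects the counts of weak IDs directly. Just inside it, at a mean of 1 to 1.1, 274 of 1699 IDs were 2-fold higher and 237 lower. Just outside it, at 0.9 to 1, the counts were 221 and 230 of 1663.

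Where several IDs of a component were 2-fold different, they mostly lay in the same direction. Included IDs fell into 28775 components, of which 6091 held 2 or more, up to 13. In 4364 of these components no ID was 2-fold different, and in 1354 exactly 1 was. In the remaining 373, 157 components had 2-fold IDs that were all higher, 139 had all lower and 77 had both directions (20.6%). Restricted to IDs of level 10 or more, 49 components held at least 2 such IDs, with 32 all higher, 15 all lower and 2 in both directions. The labels and files do not say how reads that fit several IDs of a component were assigned, so IDs of a component are no independent observations.

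The other IDs of a component were looked up for each 2-fold ID. A partner was counted once for each such ID of its component, so larger components weigh more. The shares of all IDs set beside these include IDs that have no partner. At level 10 or more, 38.4% of the partners of a higher ID were themselves higher (76 of 198) and 1.52% were lower, beside 6.79% and 3.45% of all 6520 IDs of that level. Partners of a lower ID were lower in 30.0% (36 of 120) and higher in 2.50%. At level 100 or more, 22 of 34 partners of a higher ID were higher (64.7%) and 0 were lower, beside 13.0% and 1.49% of all IDs there. Counted over all levels the share was smaller, with 414 of 1885 partners of a higher ID higher and 101 lower, and the shares of all IDs were 8.74% and 9.16%. Within components that held exactly 2 IDs of level 10 or more, 632 in number, the folds of both had a Pearson r of 0.62 and a Spearman rho of 0.52. For 88.4% of these pairs the log2 folds lay within 1 of each other, at a level where the middle 50% of single IDs spanned only 0.61. Over all levels the 4112 pairs had a Pearson r of 0.35 and a Spearman rho of 0.29, with 80.4% within 1.

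**Figure D4:**
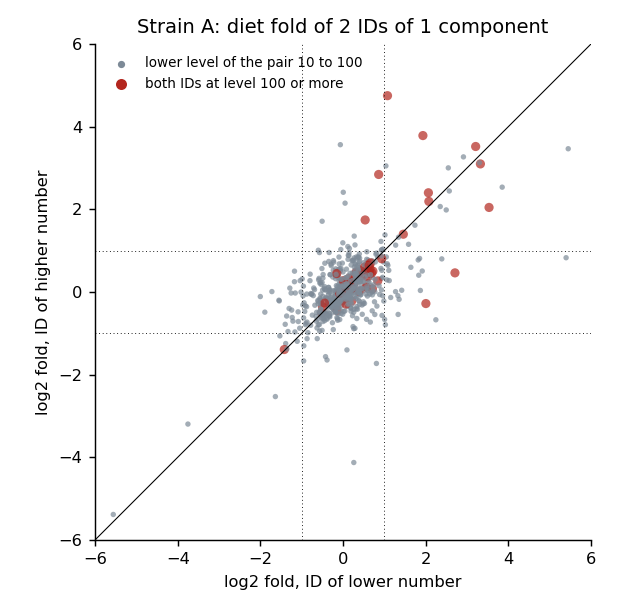
Log2 fold of rapeseed over fishmeal of both IDs in the 632 components with exactly 2 IDs of level 10 or more (x axis, the ID of lower number; y axis, the ID of higher number), with the line of equal folds and dotted lines at 2-fold. Red points are pairs with both IDs at level 100 or more. Most points lie near 0 on both axes, and the Pearson r of the pairs is 0.62.

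In some components every included ID was at least 2-fold different in the same direction. Among the 1979 components with 3 or more included IDs this held for 11 components on the higher side and 11 on the lower side. An included ID with no measured level on 1 diet must be 2-fold different, so it counts here through the filter itself. Component c31265 on the higher side holds such an ID. The 3 IDs of c24546 on the same side summed to 0.04 FPKM on fishmeal and 8.67 FPKM on rapeseed. How many of the components rest on such IDs was not counted. The higher components had median log2 folds of 1.36 to 3.46, and 9 of them kept every ID past 2-fold with the factors divided out. The lower ones had medians of -4.08 to -1.20. All 11 kept every ID past 2-fold, as they must on a scale that lowers every fold. The summed level of the higher components ran from 4.36 to 640.0 FPKM, and that of the lower ones from 6.41 to 274 FPKM with a median of 15.1. In strain F the median fold of the component was 2-fold higher in 4 of the first 11 and 2-fold lower in 1, and 2-fold higher in 2 and lower in 2 of the second 11. Over all 1979 components it was 2-fold higher in 36.8% and lower in 2.43%.

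The component with the largest median on the higher side was c31265, with 3 included IDs. The most abundant stood at 61.4 FPKM on fishmeal and 687 FPKM on rapeseed, 11.2 times as high. The second went from 0.913 to 82.5 FPKM, and the third, with a listed 0 on fishmeal, stood at 3.94 FPKM on rapeseed. Strain F had 327, 19.5 and 1.38 FPKM of the same IDs on rapeseed. Of the first it had 139.6 FPKM on fishmeal, so that ID was also higher on rapeseed there. The others were listed at 0 in its fishmeal library, as 36996 IDs were, so their direction in strain F rests on those 0s. With the factors divided out the first had 198 FPKM on fishmeal there and 306 FPKM on rapeseed.

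On the lower side the largest median was that of component c26918, which holds c26918_g1. On fishmeal its 3 IDs stood at 230.0, 161 and 128 FPKM. On rapeseed they stood at 12.6, 7.11 and 8.19 FPKM, lower by ratios of 18.2, 22.7 and 15.7. All of them ranged between 55.7 and 60.6 FPKM in strain F on fishmeal and between 26.2 and 54.9 FPKM on rapeseed. The strain F levels lie between the strain A levels for each of the 3 IDs.

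**Figure D5:**
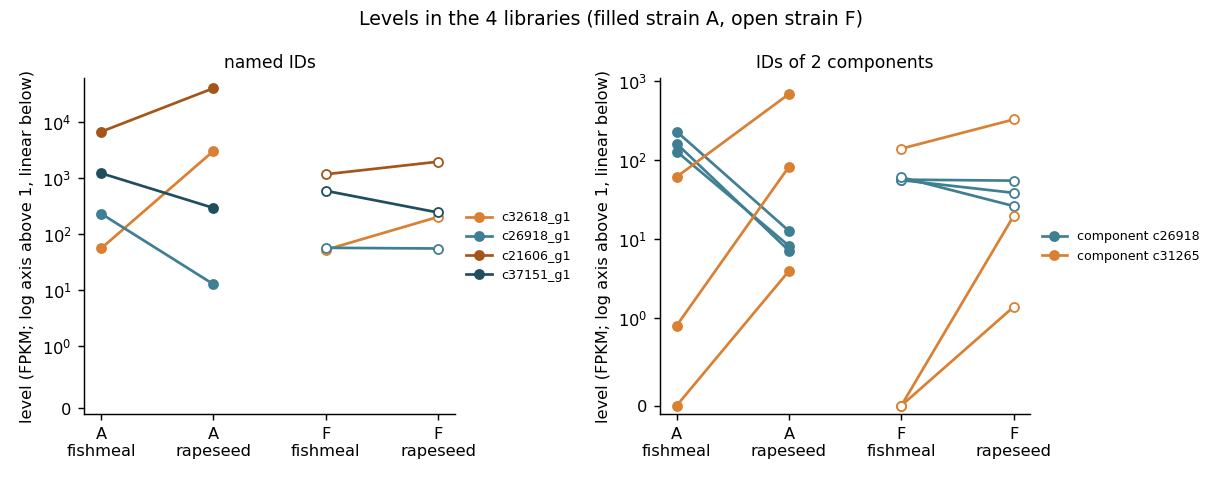
Levels (y axis, FPKM, log scale above 1 and linear below) in the 4 libraries (x axis) of the 4 IDs named (left) and of the included IDs of components c31265 and c26918 (right), with filled points for strain A and open points for strain F, 1 library each. The 3 IDs of c26918 go from 128 to 230.0 FPKM down to 7.11 to 12.6 FPKM in strain A, and lie between those values in strain F.

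Components chosen for having 2-fold IDs in both directions tend to a near even sum through that choice itself. For 72 of the 77 the summed level of the component was within 2-fold between the diets, for 3 it was higher and for 2 lower. The summed level of these components had a median of 19.96 FPKM. It reached 100 FPKM or more in 8 of the 77, beside 1015 of all 28775 components. Summing all components in the same way gave 2646 of 28775 at least 2-fold higher (9.20%) and 2668 lower (9.27%), where the shares for single IDs were 8.74% and 9.16%. At a summed level of 100 or more, 123 of 1015 components were higher and 19 lower.

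The diet pair of strain F shares no library with that of strain A, so its values can be read beside these. Its fishmeal library was sparse, with 36996 IDs listed at 0 beside 8172 to 11105 in the other libraries, and its factors add 0.60 to each log2 fold of rapeseed over fishmeal. Of the 131 higher IDs of level 100 or more, 68 (51.9%) also stood 2-fold or more higher in strain F and 0 stood lower, where 24.2% of all 1007 IDs were higher in strain F and 1.29% lower. With the strain F factors divided out, 37 of the 131 (28.2%) were higher and 2 lower, beside 7.35% and 3.38% of the 1007. Of the 34 at level 1000 or more, 14 were higher in strain F (41.2%), beside 12.5% of the 200 IDs of that level, and with the factors divided out 8 of the 34 (23.5%), beside 4.50%. Of the 15 lower IDs, 3 stood 2-fold or more lower in strain F on the deposited scale, and 8 with the factors divided out. A strain F log2 fold below 0 was found for 13 of the 15, beside 8.94% of the 1007, and with the factors divided out for all 15, beside 42.4%. For the 443 higher IDs of level 10 or more the median log2 fold in strain F was 1.14, and for the 225 lower ones it was 0.11, where the 6520 IDs of that level had a median of 0.51. With the factors divided out these medians were 0.60, -0.37 and -0.05. Of the 225 lower IDs, 59 (26.2%) stood 2-fold or more higher in strain F and 36 (16%) lower. The shares of the 6520 were 26.3% and 3.67%. With the factors divided out 52 of the 225 (23.1%) were higher and 66 (29.3%) lower, beside 14.6% and 11.1%. How far the sparse library sets these counts was not tested.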

How the data were processed

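Liver RNA of strain A of gibel carp was compared between 1 library on rapeseed meal and 1 on fishmeal. The authors deposited 1 table per library with values for 56011 gene IDs. Per the submitters' processing notes the tools were Bowtie 1.0.1 and RSEM 1.2.17, whose roles are not stated, and no reference is named there. The unit is not named in the tables. The deposited values were read as FPKM times 1 factor per library, because all values under 3 (100%) were multiples of a library's own step, to within 0.0006, as numbers of 2 decimals are after rescaling. The 4 factors multiply to 1. Depth in reads is unknown, so no counting interval is given.

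IDs with a mean of the 2 strain A values of 1 or more were kept. Folds are differences of log2(value + 1), which understates changes of low IDs, and 2-fold is the rule of size. With 1 library per group there is no p-value. Level classes and included IDs stay those of the deposited scale when the factors are divided out. The named IDs are the largest and smallest fold at level 100 or more (above 0 on both diets) and the highest level among 2-fold higher and lower IDs. The named components have the largest median among those with 3 or more IDs all past 2-fold in 1 direction. Members, classes and rules were chosen with earlier results of these data known. RefSeq's gene table matched 0 IDs, so no gene list was used. Steps ran in Python 3.11.15 with numpy 2.4.6, pandas 2.3.3 and scipy 1.17.1, and were tested on simulated data.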

Additional observations from a re-analysis of the deposited data

How the results depend on the processing

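No paired analysis was possible because each group holds 1 library, and for the same reason no library could be left out. The log2 folds of the 4 named IDs kept their direction and stayed past 2-fold under every scale and pseudocount tried. They lay between 5.31 and 5.77 for c32618_g1, and between 2.14 and 2.58 for c21606_g1. For c37151_g1 they lay between -2.50 and -2.04, and for c26918_g1 between -4.50 and -3.74. These IDs were picked by fold and level from the same values, so the settings could hardly have brought them under 2-fold. Of the 60 counts recomputed, 26 stayed within 1.5 times the reported one.

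Those that moved are given in the order higher and lower. With the library factors divided out the counts were 2191 and 5389 over all IDs, and 73 and 45 at level 100 or more. Dividing each library by its sum gave 5920 lower IDs, 73 and 46 at level 100 or more, and 466 components with 2 or more 2-fold IDs in 1 direction in place of 296. Setting the median fold at level 100 or more to 0 gave 85 and 37 there. A pseudocount of 0.1 gave 5711 lower IDs, 550 components in 1 direction and 199 in both, in place of 77. With a pseudocount of 5 there were 649 and 442 IDs, 64 components in 1 direction and 5 in both. With no filter on level there were 5705 lower IDs and 164 components in both directions. Requiring values above 0 on both diets gave 2175 and 1872 IDs and 46 components in both directions. A threshold of 1.5-fold gave 6374 and 7063 IDs, 269 and 45 at level 100 or more, and 823 and 338 components in 1 and in both directions. At 4-fold they were 796 and 925, 50 and 6, and 54 and 3. The counts at level 100 or more did not move with the pseudocount: 0.1 gave 132 and 15 and 5 gave 126 and 14. Dividing the strain F factors out, an alternative chosen after seeing the data, gave 37 in place of 68 higher IDs of that level that were also higher in strain F, and 8 in place of 3 lower ones. Depth in reads is unknown, which limits values of a few FPKM most.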
